A study of Mus musculus with 4 samples.

Results

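The Hippo pathway core was examined as 10 genes: the kinase genes Stk3, Stk4, Lats1 and Lats2, the co-activator genes Yap1 and Wwtr1, and the transcription factor genes Tead1, Tead2, Tead3 and Tead4. They were listed by name as the pathway's core, by a rule that uses no measured value but was written with earlier results of these data known, out of 21887 protein-coding genes. Peaks belonged to a gene where they overlapped its body or the 50 kb on either side of it, a stretch called its neighbourhood here. ATAC-seq, which finds open chromatin as the DNA that Tn5 transposase can reach, was done on mouse hair follicle stem cells sorted by flow cytometry as Ly-6A/E negative, CD34 positive and positive for a marker labelled CD45f. Of the 4 samples, 2 were labelled Irx5KO and 2 WT, and the labels give no allele, age, sex, strain or other agent for either. Each genotype was deposited as 1 list of peaks that belongs to both of its samples. No spread between replicates could therefore be computed, no test between genotypes was possible, and library preparation and genotype cannot be told apart in any value below.

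The pathway is a kinase cascade that restrains growth. MST1 and MST2, encoded by Stk4 and Stk3, activate LATS1 and LATS2, which phosphorylate YAP1 and TAZ, the product of Wwtr1, and so keep them out of the nucleus. Unphosphorylated YAP1 and TAZ enter the nucleus and bind TEAD proteins on DNA to switch on genes of proliferation and cell adhesion. In skin, YAP1 and TAZ are known for promoting growth of basal epidermal cells and repair after wounding.

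The lists held 484992 Irx5KO and 498061 WT peaks on the 21 standard chromosomes, with median widths of 410 and 400 bp. Read depth was not given in the lists. All 10 genes listed here as follicle stem cell markers had a peak within 1000 bp of a gene end in both genotypes. Among them were Cd34, Krt15, Sox9, Krt5, Krt14 and Itga6. Of 3 immune markers, 2 had one in WT only and 1 in neither. The 3 endothelial markers were split into 1 in both, 1 in WT only and 1 in neither, and of 3 melanocyte markers 2 had one in WT only and 1 in both. Of 5 interfollicular and upper-follicle markers 3 had one in Irx5KO only and 2 in both, and of 3 fibroblast markers 1 had one in Irx5KO only and 2 in both. The part of other cell types in the results below was not tested. Whether a peak comes from more cells with that site open, or from a site more open in each cell, cannot be told apart in such bulk data.

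RefSeq promoter sequence (GRCm38.p6, the same assembly as the mm10 build of the peaks) was matched for 7 of the 10 genes, and Tead1, Tead4 and Stk3 had no entry. The most upstream listed start of each gene was used, with the 250 bases before it, and 4 are shown because they hold the TEAD motif or lack a peak. Capitals mark the TEAD motif GGAATG and the GC box GGGCGG, read on both strands, so that CATTCC and CCGCCC are marked too. Each run reads 5′ to 3′ on the minus strand for Yap1, Wwtr1 and Tead3 and on the plus strand for Tead2, and stops at the border of the annotated gene.
Yap1 (chr9:8004639-8004846): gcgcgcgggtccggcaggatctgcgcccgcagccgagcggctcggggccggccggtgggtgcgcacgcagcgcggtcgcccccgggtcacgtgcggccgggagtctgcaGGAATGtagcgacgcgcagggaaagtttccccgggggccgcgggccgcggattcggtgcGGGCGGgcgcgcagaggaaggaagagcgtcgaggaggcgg
Wwtr1 (chr3:57575911-57576160): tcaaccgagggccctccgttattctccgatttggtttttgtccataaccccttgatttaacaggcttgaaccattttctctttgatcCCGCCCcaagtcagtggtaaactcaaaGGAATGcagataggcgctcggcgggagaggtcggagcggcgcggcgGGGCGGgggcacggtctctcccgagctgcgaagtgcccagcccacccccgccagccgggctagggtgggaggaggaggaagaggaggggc
Tead3 (chr17:28350806-28351055): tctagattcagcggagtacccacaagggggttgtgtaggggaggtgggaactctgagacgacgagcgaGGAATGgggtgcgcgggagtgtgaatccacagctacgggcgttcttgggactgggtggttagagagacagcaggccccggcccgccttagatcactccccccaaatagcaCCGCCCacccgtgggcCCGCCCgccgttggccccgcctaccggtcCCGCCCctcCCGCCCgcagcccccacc
Tead2 (chr7:45215542-45215791): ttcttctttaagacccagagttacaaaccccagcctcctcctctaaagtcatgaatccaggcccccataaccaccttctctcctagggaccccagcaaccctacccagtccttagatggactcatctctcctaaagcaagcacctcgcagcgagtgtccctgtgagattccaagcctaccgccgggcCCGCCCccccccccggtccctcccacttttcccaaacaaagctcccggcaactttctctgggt
The runs of Yap1, Wwtr1 and Tead3 were covered by a peak along their whole length in both genotypes. The Tead2 run had 0 bases under a peak in either list.

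The TEAD motif was present in 3 of the 7 promoters, those of Yap1, Wwtr1 and Tead3, and in 11.7% of 21263 promoters of protein-coding genes of the same length. The GC box was present in 7 of the 7, against 42.6% of all promoters. That table lists several starts for some genes, and over all 11 listed promoters of these genes, some of which overlap, the TEAD motif was in 5 and the GC box in 10. The AP-1 motif TGANTCA and the Iroquois motif ACANNTGT, searched on both strands, had 0 matches in the 7 or the 11, where 6.13% and 5.26% of all promoters held them. The GC content of the 7 promoters ranged from 57.2% in Tead2 to 76.4% in Yap1, and the median over all was 55.6%. These matches are letters in a window and show no binding.

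All 10 genes had a peak within 1000 bp of a gene end in both genotypes, as did 75.2% of all coding genes. None of the 10 had one in a single genotype, against 6.07% of all genes in Irx5KO only and 3.99% in WT only. These classes pool the 2 ends of a gene. The lower end of Tead4 had 2 Irx5KO-only peaks, with 500 bp covered in Irx5KO and 0 in WT. By score these peaks stood at percentiles 1.48 and 22.5 of the Irx5KO list. At the 3′ end of Tead2 28 bp were covered in Irx5KO and 0 in WT, but by a peak shared between the lists. Its summit lay 1558 bp from that end in both, inside Cd37, and the WT peak began just outside the window. No end had a peak in WT only, and no share over all genes is given for single ends. In 9 of the genes a peak of each list lay across the gene end itself. Tead2 was the exception: its gene-end peak lay inside the gene, with the summit 909 bp from the start in Irx5KO and 744 bp in WT.

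**Figure D1:**
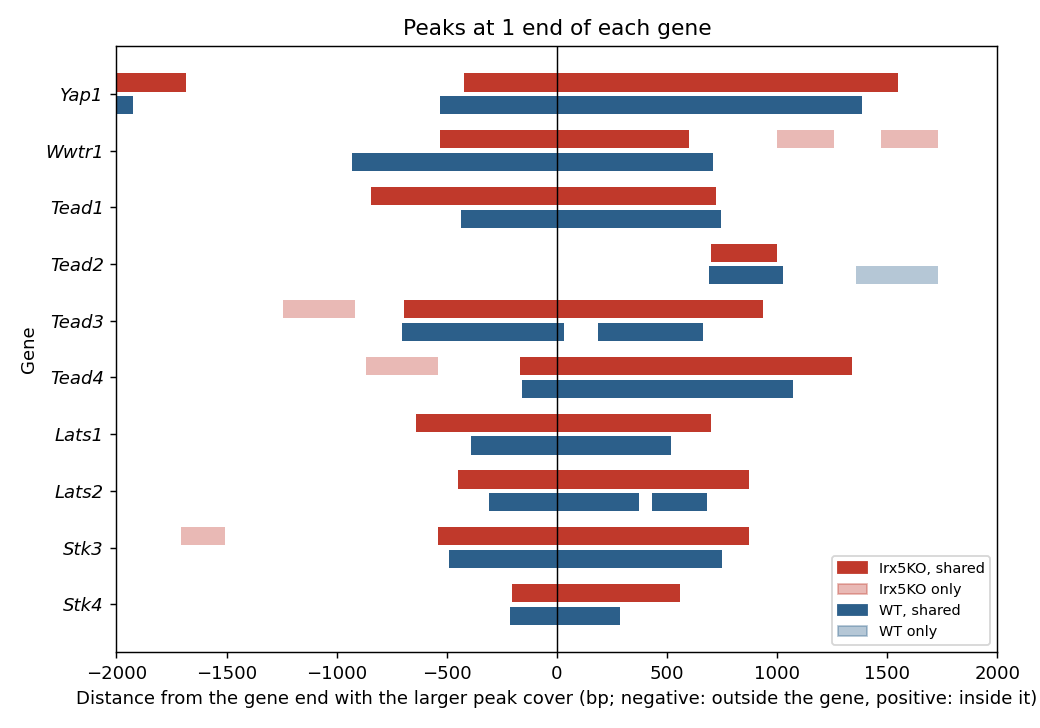
Peaks of the Irx5KO (red) and WT (blue) lists within 2000 bp of 1 end of each gene, with distance in bp on the x axis, negative outside the gene and positive inside. Dark bars overlap a peak of the other list and pale bars do not. At Tead3 and Lats2 a single Irx5KO peak spans what is divided into 2 peaks in WT, and at Tead2 no peak reaches the gene end.

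Stk4 and Stk3 encode the kinases at the top of the cascade. At the start of Stk4 (chromosome 2, 164074113 to 164155524) the Irx5KO peak spanned 760 bp and the WT peak 500 bp. Its score stood at percentile 64.3 of the Irx5KO list and 58.5 of the WT list. Scores are the authors' own value per peak and were ranked only within a list, and ranks from lists of different lengths show no change in accessibility. The Stk3 peak (gene at chromosome 15, 34875499 to 35155882) ranked highest among the 10 genes, at percentile 98.5 in Irx5KO and 94.5 in WT. It spanned 1410 bp in Irx5KO and 1240 bp in WT.

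Lats1 and Lats2 encode the kinases that act directly on YAP1 and TAZ. The Lats1 start peak (gene at chromosome 10, 7681200 to 7716461) was 1340 bp wide in Irx5KO and 910 bp in WT, at percentiles 43.8 and 37.7. It overlaps the end of Pcmt1, a protein repair enzyme gene whose annotated span reaches into Lats1, so the peak cannot be given to 1 of the 2 genes. At Lats2 (chromosome 14, 57689662 to 57746212) the Irx5KO list held 1 peak of 1320 bp at percentile 64.3. The WT list held 2 narrower peaks there, of 250 and 680 bp, separated by 60 bp, the higher at percentile 47.6. All of these overlap the annotated span of Gm52140 as well, so they cannot be given to Lats2 alone. A start listed further inside Lats2, at 57734418, had 0 bases under a peak within 1000 bp in either list.

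Yap1 and Wwtr1 encode the co-activators. The Yap1 start (gene at chromosome 9, 7931999 to 8004638) lay under peaks of similar width, 1970 bp in Irx5KO and 1920 bp in WT, with summits 18 and 23 bp from the gene end. Their percentiles were 80.8 and 63.7. The Wwtr1 start (gene at chromosome 3, 57455644 to 57575910) had a wider peak in WT, with 1130 bp in Irx5KO and 1640 bp in WT, at percentiles 84.6 and 73.8. Wwtr1 was also marked in both lists at its 3′ end, by peaks of 730 and 740 bp.

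The TEAD genes encode the DNA-binding partners. Tead1 (chromosome 7, 112679356 to 112906784) had a peak of 1570 bp at percentile 64.6 in Irx5KO and of 1180 bp at percentile 38.9 in WT. Tead4 (chromosome 6, 128227143 to 128300813) had one of 1510 bp at percentile 73.0 and of 1230 bp at percentile 58.6. Tead2 (chromosome 7, 45215792 to 45233468) had narrow, low-ranked peaks of 300 and 340 bp, at percentiles 10.8 in Irx5KO and 14.3 in WT. It was the 1 gene of the 10 with a higher percentile in WT.

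Tead3 (chromosome 17, 28331671 to 28350805) had the widest gap in rank, with percentile 70.5 for an Irx5KO peak of 1630 bp and 38.9 for the higher of 2 WT peaks of 480 and 740 bp. The WT peaks left 150 bp between them, from 28350621 to 28350770, that the Irx5KO peak covered fully. That stretch lies inside the annotated gene, before a second listed start at 28350600, and holds 2 TEAD motifs 123 and 114 bp ahead of that start. The 30 bases around them, picked out after the values were seen, are shown because they lay under a peak in 1 list only. The motifs are in capitals on the minus strand.
Tead3 (chr17:28350701-28350730): ccgggctCATTCCgtaCATTCCggccatcc
All 30 bases were covered in Irx5KO and 0 in WT. They lie in the gap between the WT peaks, and no share over all genes is given for such gaps. Whether they are exonic was not determined, since the gene table gives no exons.

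Across the 10 genes the gene-end peak had the higher percentile in Irx5KO in 9 and was wider in Irx5KO in 8. The background moved the same way: of 16260 genes with a peak in both lists at the same end, 74.3% had the higher percentile in Irx5KO and 65.4% the wider peak. Bases covered within 1000 bp of the end were higher in Irx5KO for 7 genes and higher in WT for Yap1, Wwtr1 and Tead2, where 62.8% of all such genes were higher in Irx5KO. The median cover over the 10 genes came to 1375 bp for Irx5KO and 1169 bp for WT, and over all such genes 1010 and 860 bp. Among the higher-scored 50% of peaks in each list, 5 genes kept a gene-end peak in both lists, Tead1, Tead3 and Lats2 in Irx5KO only, and Tead2 and Lats1 in neither. Of all genes 40.1%, 11.8% and 45.5% fell in these classes, and 2.63% in WT only.

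**Figure D2:**
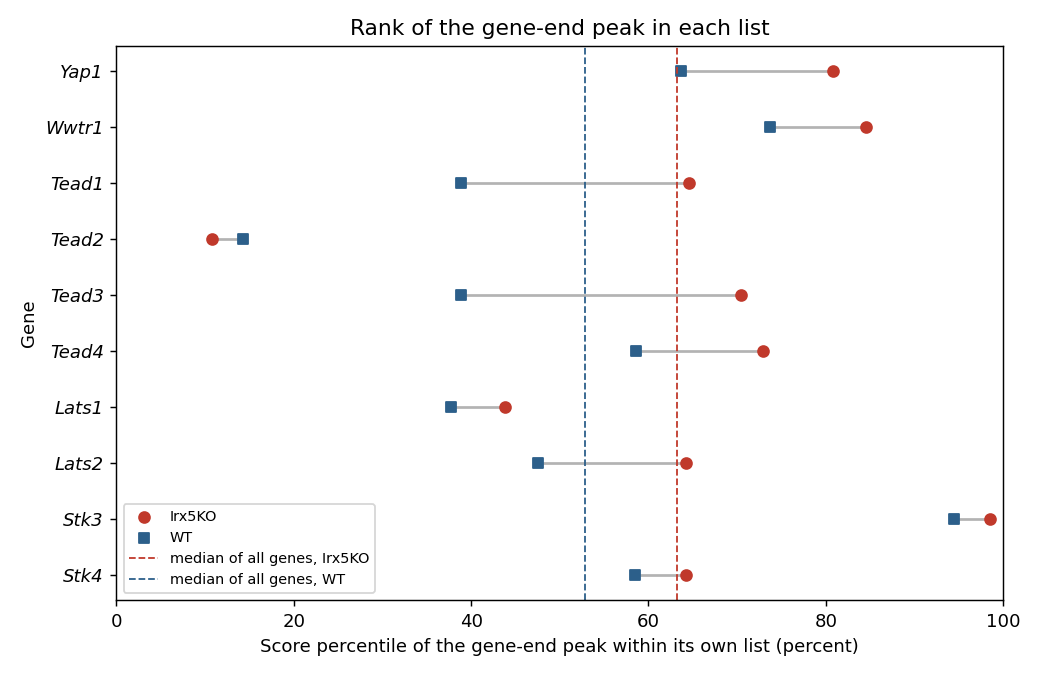
Score percentile of the gene-end peak within its own list (x axis, percent) for each gene, with circles for Irx5KO and squares for WT, and dashed lines for the medians of all genes with such a peak in both lists (63.2 and 52.8). The circle lies right of the square in 9 of 10 genes, all but Tead2.

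The neighbourhoods contained 330 Irx5KO and 320 WT peaks. An overlap of 1 bp or more with a WT peak was found for 241 of the former, or 73.0% (95% Wilson interval 68.0 to 77.5, for counting error only, as for all intervals here), against 75.6% in the same windows of all coding genes and 78.2% of the whole Irx5KO list. Of the WT peaks 247 overlapped, or 77.2% (72.3 to 81.4), against 74.7% in the windows of all genes and 73.4% of the whole WT list. The other 89 Irx5KO and 73 WT peaks were genotype-only, an Irx5KO share of 54.9% (47.3 to 62.4). The same windows of all coding genes gave 49.3%, where a peak near several genes counts for each, and all genotype-only peaks of the genome, each taken a single time, gave 44.4%. Gene bodies held 48 Irx5KO-only and 36 WT-only peaks, and the flanks 41 and 37.

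**Figure D3:**
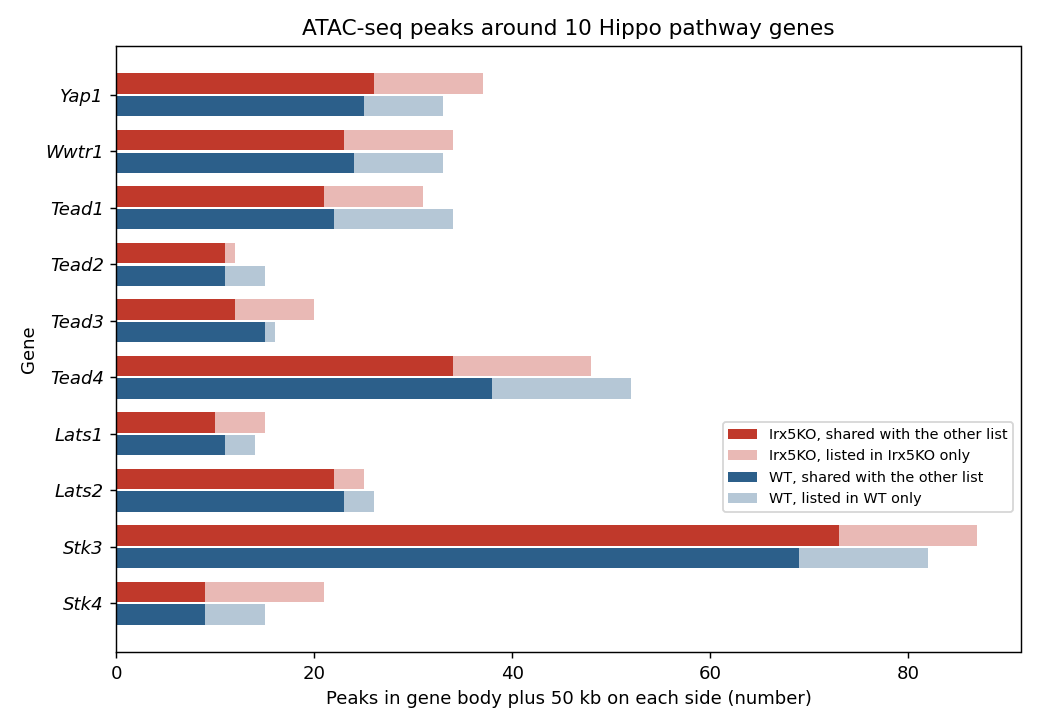
Number of peaks in the gene body plus 50 kb on each side (x axis) in the Irx5KO (red) and WT (blue) lists, with the part shared with the other list in dark and the part listed in 1 genotype only in pale. Stk3 held the most, with 87 and 82, and the pale part is long in Irx5KO and short in WT at Tead3.

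A gene was set apart where 1 genotype had at least 1.5 times as many genotype-only peaks as the other. By this measure 3 genes leaned to Irx5KO, namely Tead3, Lats1 and Stk4, and 35.7% of all genes with any genotype-only peak did. Tead2 alone leaned to WT, against 29.7% of all genes. The other 6 did not reach this fold in either direction. These shares are near the background, so the count of genes that lean 1 way is no result about the pathway.

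Tead3 was flanked or crossed by 8 Irx5KO-only peaks and 1 WT-only peak, a share of 88.9% (56.5 to 98.0). Of these 8, 3 lay in the gene body, 2 in the lower flank and 3 in the upper flank, and 3 overlapped Ppard, Rpl10a or Tulp1. Their percentiles ran from 5.53 to 53.8 in the Irx5KO list, and 1 lay in its upper 50%. With sharing set at 50% of a peak covered the numbers were 9 and 3, and with flanks of 100 kb they were 11 and 3. Among genes with 9 or more genotype-only peaks, 1.71% had at least 8 times as many in Irx5KO as in WT, a limit set after these values were seen. Peak cover of the Tead3 neighbourhood was 8.08% of its bases in Irx5KO and 5.66% in WT.

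The other TEAD genes did not share this lean. Tead2 had 1 Irx5KO-only and 4 WT-only peaks in a neighbourhood with 8 other coding genes, and 1 and 1 among the higher-scored 50%. Among genes with 5 or more genotype-only peaks, 4.98% had at least 4 times as many in WT as in Irx5KO, a limit also set after the values were seen. Its peak cover was 4.44% in Irx5KO and 6.04% in WT. Tead1 had 10 and 12, and a cover of 5.34% and 4.92%. Tead4 had 14 and 14, with 7 Irx5KO-only and 2 WT-only peaks in the gene body and 3 and 10 in the lower flank. Those 10 WT-only peaks all ranked at percentile 22.4 or below. With sharing set at 50% of a peak covered, the Tead4 neighbourhood had 21 and 15. The cover of Tead4 was 20.01% in Irx5KO and 18.9% in WT. Splits by place, at any of the 10 genes, were picked out after the values were seen. No share over all genes is given for them.

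**Figure D4:**
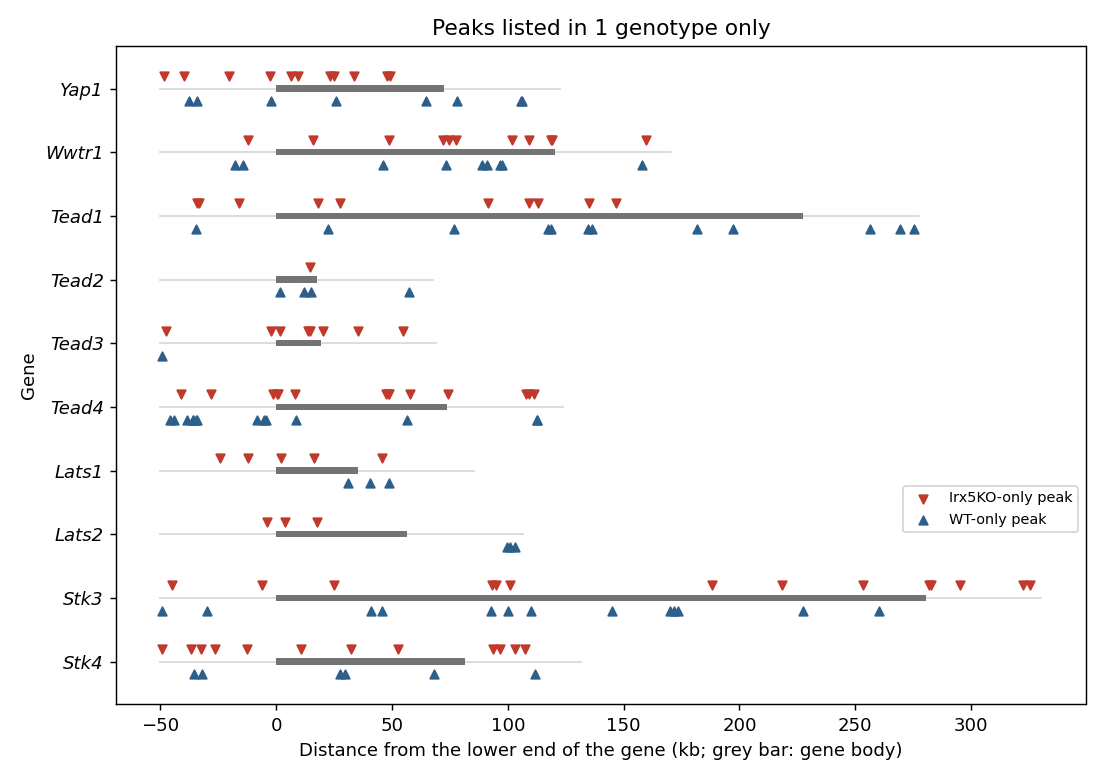
Positions of Irx5KO-only (red, pointing down) and WT-only (blue, pointing up) peaks along each neighbourhood, in kb from the lower end of the gene, with the gene body as a grey bar. At Tead4 WT-only peaks gather in the lower flank, and at Tead3 a single WT-only peak faces 8 Irx5KO-only peaks.

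Among the kinase genes, Stk4 had 6 WT-only and 12 Irx5KO-only peaks, and the Irx5KO share was 66.7% (43.7 to 83.7). In its gene body the numbers were 3 and 3, so the difference lay in the flanks, which hold 6 other coding genes. Stk4 also had the lowest shared part of the 10 genes, with 42.9% (24.5 to 63.5) of its Irx5KO peaks and 9 of its 15 WT peaks overlapping the other list. Lats1 had 5 and 3 genotype-only peaks, and its cover was 8.54% in Irx5KO and 5.56% in WT, the largest difference among the 10 genes. An Irx5KO peak of 1750 bp in its lower flank, inside Pcmt1, had 12.0% of its bases under a WT peak.

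Lats2 had 3 and 3, with its WT-only peaks all in the upper flank. Stk3, the longest of the genes, had 14 and 13, and its peaks were shared in 83.9% (74.8 to 90.2) of Irx5KO and 84.1% (74.7 to 90.5) of WT cases. Its gene body held 7 Irx5KO-only and 11 WT-only peaks and its upper flank 5 and 0. Yap1 had 11 and 8 and Wwtr1 had 11 and 9. In the Yap1 body 7 Irx5KO-only peaks faced 2 WT-only peaks, whereas its upper flank held 0 and 3.

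Peak cover of the neighbourhood was higher in Irx5KO for 7 genes and higher in WT for Wwtr1, Tead2 and Stk3, and for 58.2% of all genes it was higher in Irx5KO. The median was 8.31% in Irx5KO and 6.79% in WT, and over all genes 10.3% and 9.56%. Stk3, Tead4 and Yap1 had the densest cover, at 21.2%, 20.01% and 16.7% in Irx5KO and 21.3%, 18.9% and 16.1% in WT. The sparsest cover was at Tead2 in Irx5KO and at Tead1 in WT.

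Peaks listed in 1 genotype only were low-ranked in their own lists. Their median percentile around the 10 genes was 17.6 in Irx5KO and 16.5 in WT, against 60.2 and 58.5 for shared peaks. The whole lists were alike in this, with 15.5 and 18.0 for genotype-only and 60.2 and 62.6 for shared peaks. None of the genotype-only peaks around the 10 genes lay in the highest decile, which held 32 shared Irx5KO and 28 shared WT peaks. No share over the whole lists is given for that decile. In the upper 50% by score 9 Irx5KO-only and 6 WT-only peaks remained, and over the windows of all genes 45.2% of such peaks were Irx5KO-only. The highest ranked was a WT-only peak of 370 bp at percentile 80.4, in the upper flank of Yap1 and inside Cfap300 (chromosome 9, 8037681 to 8038050). Next came a WT-only peak of 200 bp inside Tead4 (chromosome 6, 128235621 to 128235820) at percentile 75.7. Inside Tead2 an Irx5KO-only peak (chromosome 7, 45230211 to 45230410) and a WT-only peak (45230511 to 45230990) stood side by side, at percentiles 67.6 and 67.7.

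For each of the 10 genes the highest-scored peak of either list was a shared one, with its summit 3.06 kb or more from the gene ends. Yap1 had its highest 3.06 kb inside the gene from the 3′ end in Irx5KO, at percentile 99.8 (chromosome 9, 7934481 to 7935410), and a matching WT peak at percentile 99.7. The highest around Tead1 lay in the lower flank, 40.4 kb from the gene (chromosome 7, 112637091 to 112639220), at percentile 99.9 in Irx5KO, with a WT partner at 99.8. In Stk3 the highest Irx5KO peak was 590 bp wide (chromosome 15, 35129761 to 35130350) and the highest WT peak 7700 bp wide (35116521 to 35124220), both at percentile 99.8. Around Tead2 the highest WT peak lay inside Slc6a16 (chromosome 7, 45255271 to 45256050) at percentile 96.2, while the highest Irx5KO peak reached 75.1.

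Other genes of the pathway were taken as 4 lists, with genes in 2 lists counted in both. The 15 YAP and TEAD target genes held 76 WT-only and 125 Irx5KO-only peaks, so Irx5KO had 62.2% (55.3 to 68.6). The windows of all coding genes gave 49.3%. Of the 15 genes, 10 had more in Irx5KO and 3 more in WT. Of all genes with any genotype-only peak 47.8% had more in Irx5KO. At least 1.5 times as many Irx5KO-only peaks were found at 9 of the 15 and the reverse at 2, against the 35.7% and 29.7% of all genes. All 15 had a gene-end peak in both lists, with the higher percentile in Irx5KO for 14, against 74.3% of all genes with such peaks. Ccn1 and Ccn2, secreted matrix proteins that serve as standard readouts of YAP activity and were named after their values were seen, had 6 and 8 Irx5KO-only against 1 and 2 WT-only peaks. Ankrd1, which encodes an ankyrin repeat protein and is another standard readout, and Areg, an EGF receptor ligand gene, likewise named after their values were seen, had more in WT, with 3 and 5 Irx5KO-only against 5 and 7 WT-only peaks. From here on the Irx5KO-only number comes before the WT-only number. The largest excess in Irx5KO was at Crim1, which encodes a transmembrane protein that binds growth factors, with 16 and 3, and the largest in WT at Tgfb2, a TGF-beta ligand gene, with 6 and 11.

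The 16 upstream and scaffold genes held 126 and 82, a share of 60.6% (53.8 to 67.0). The windows of all coding genes gave 49.3%, which is the background for each list here. Of the 16, 10 had more in Irx5KO and 5 more in WT. Among all genes with any genotype-only peak, 47.8% had more in Irx5KO. Frmd6, a membrane scaffold gene, had 13 and 0, and Mob1a, which encodes a LATS adaptor, had 2 and 6. None of the genotype-only peaks at Frmd6 was among the higher-scored 50%. With flanks of 100 kb, 15 of 21 at Frmd6 were Irx5KO-only. Taok1, a kinase gene, had its gene-end peak in WT only and 5 and 3 genotype-only peaks. Map4k4, a kinase gene named after its values were seen, had 17 and 6, and 0 and 2 among the higher-scored 50%. The 11 genes of binding partners and co-factors held 82 and 85, a share of 49.1% (41.6 to 56.6). Without the chromosome X genes of this list the share was 53.9% (45.7 to 61.9), and the labels give no sex. There Ptpn14, a phosphatase that binds YAP1, had 24 and 12, and Vgll3, a TEAD co-factor, had 2 and 11. None of the genotype-only peaks at Vgll3 was among the higher-scored 50%. The 5 related kinase genes held 32 and 23, a share of 58.2% (45.0 to 70.3), with Stk38 at 9 and 2 and Stk38l at 5 and 6. Gene-end peaks were absent from both lists at Taok2, Vgll1 and Stk25, named after their values were seen. Over the 44 genes of the 4 lists, each taken a single time, 40 had a gene-end peak in both lists. The class of WT only held 1 of them and that of neither held 3. Of all genes 75.2%, 3.99% and 14.7% fell in these classes. In the upper 50% by score the target genes kept 12 and 12, an Irx5KO share with an interval of 31.4% to 68.6%. The upstream genes kept 8 and 10, with an interval of 24.6% to 66.3%. All genes gave 45.2% there, and with so few peaks a lean of the size seen over all peaks was not detectable.

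**Figure D5:**
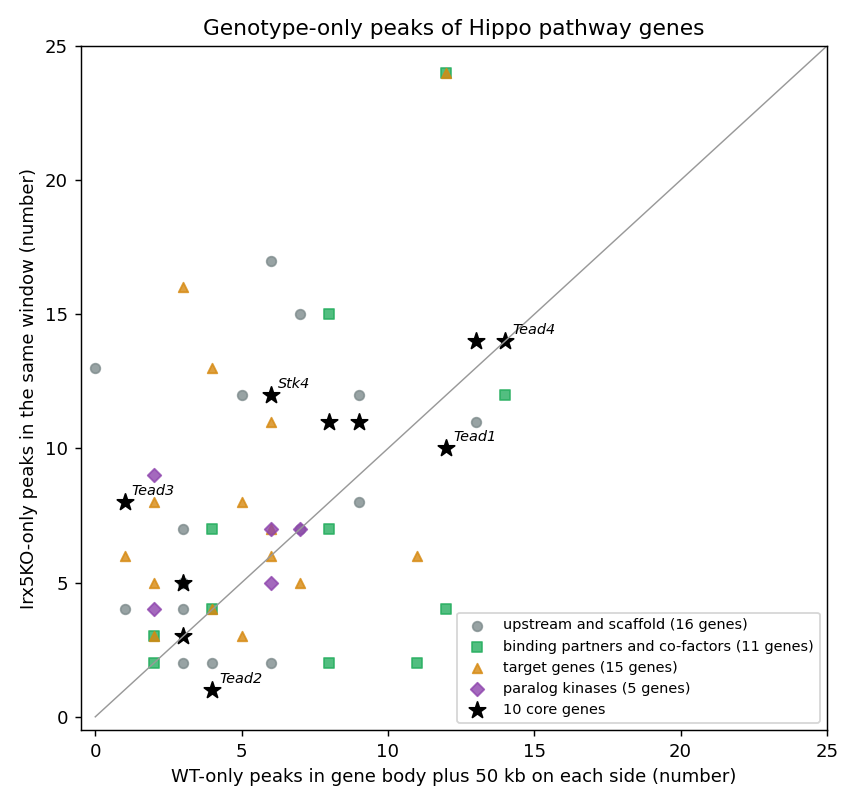
Irx5KO-only (y axis) against WT-only (x axis) peaks in the gene body plus 50 kb on each side for the 10 core genes (stars) and the 4 other lists, with a line of equal numbers. Of the 15 target genes 10 lie above the line, as do 6 of the 10 core genes and 47.8% of all coding genes with any genotype-only peak.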

How the data were processed

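ATAC-seq of 2 Irx5KO and 2 WT samples was deposited as 1 peak list per genotype. Per the submitters' processing notes the build was mm10 and the tools included Bowtie2, Genrich 0.6, cutadapt 2.9, ChIPseeker 1.24.0 and deepTools 3.4.2. Their roles and settings, including any read shift, were not given in the sources used here. The deposited score per peak is the authors' own, a whole number of at least 50, whose scale is not stated. The deposited signal and p-value columns hold 0, and the summit offset in bp was used as deposited, per the file headers. Peaks on unplaced contigs, 1188 and 1733, were left out.

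Gene positions came from RefSeq (GRCm38.p6), without exons. Gene-end windows reached 1000 bp out from, and into, either annotated end. For cover, width and rank, the end with more covered bases was taken. The 10 genes, the other lists and the motifs were chosen with earlier results of these data known. Named besides the 10 were, per list, genes whose gene-end peak was in 1 list alone, the largest excess each way, and each gene's highest-scored peaks; others are marked as chosen later. Alternatives are under the closing section, and gene-end cover and rank were added after the data were seen. The counting was tested on simulated data and equalled bedtools 2.31.1 for 21887 genes. Python 3.11.15, numpy 2.4.6, pandas 2.3.3, scipy 1.17.1 and matplotlib 3.10.9 were used.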

Additional observations from a re-analysis of the deposited data

How the results depend on the processing

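No paired analysis was possible because each genotype has 1 pooled list, and for the same reason no sample could be left out. The Irx5KO-only share around the 10 genes lay between 54.9% and 60% under all 7 alternatives, inside its interval each time. With both lists cut to equal length it was 59.3%, from 89 and 61 peaks, where all genes gave 51.8%. In the upper 50% by score it rested on 15 peaks. The shared part moved to 94.4% of Irx5KO and 96.2% of WT peaks in the upper 50% by score, and for Irx5KO to 66.7% when 50% of a peak had to be covered and to 67.8% without flanks. Sharing in the upper 50% was still counted against all peaks of the other list. With both lists cut to their upper 50%, genes of the 10 with a gene-end peak in both numbered 5, and 3 had one in Irx5KO only. All 10 had one in both lists before the cut. The Irx5KO-only share of the other lists moved there to 44.4% for upstream genes, 30.0% for binding partners, 50.0% for targets and 71.4% for related kinases, from 18, 10, 24 and 7 peaks. For related kinases it was also 37.5% without flanks and 42.9% with flanks of 10 kb. Leaving out chromosome X genes, an alternative added later, gave 53.9% for binding partners and 59.5% for related kinases, from 141 and 42 peaks. Among named genes past the 1.5-fold limit, the lean to 1 genotype turned round at Lats1 (46.7%) and Mob1a (63.0%) with flanks of 100 kb. It also did so at Ankrd1 (100%, from 1 peak) with flanks of 10 kb and at Taok1 (0%, from 1 peak) without flanks. In the upper 50% by score it did so at Map4k4 (0%, from 2 peaks). Smaller leans could turn too, as at Areg (66.7%, from 3 peaks) with flanks of 10 kb. Stk3 (38.9%, from 18 peaks) without flanks and Yap1 (0%, from 1 peak) in the upper 50% were further cases. The counts of genes with higher cover, gene-end cover or gene-end rank in Irx5KO stayed within 1.5 times of those reported under every alternative run. Counts of genotype-only peaks per gene are small, and the unknown depth and threshold of each list limit what they can show.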

Other observations

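Some of the shared peaks around these genes were very wide. Peaks of 6260 bp or more numbered 5 in each list, of which 4 belonged to the Stk3 neighbourhood and 1 to that of Yap1. In Stk3 the widest measured 7820 bp in Irx5KO and 7700 bp in WT, with 98.5% of the first and 100% of the second covered by the other list. The other 3 of Stk3 measured 6650, 6260 and 6300 bp in Irx5KO and 6630, 6350 and 6330 bp in WT, and that of Yap1 6890 and 6940 bp. Each was covered by over 98% in the other list. None of the other 8 genes had a peak of this width.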
